A study of Mus musculus with 18 samples.

Results

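The genes described here are the 34 that encode the lysosomal proton pump and its accessory proteins, lysosomal membrane proteins, lysosomal hydrolases and their activators, and the transcription factors TFEB, TFE3 and MITF. They were taken by gene symbol from a fixed list and not by a limit on their values, but the list was chosen with earlier results of these data known. All 34 were found among the 55487 gene identifiers of the count table. They were followed in BV2 cells, an immortalised mouse microglial line, whose nuclear and cytoplasmic RNA was sequenced separately, untreated (0 h) or exposed to oxyhemoglobin, the oxygenated blood pigment, at 10 µM for 12 or 24 h. Each of the 6 groups had 3 libraries per the labels, 18 in all, but the table analysed here holds 1 mean per group, so no spread between libraries, SD or p-value can be given. The labels name no untreated culture at 12 or 24 h, so oxyhemoglobin and time in culture cannot be told apart. All groups come from the same line, with no genetic change named in the labels.

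Lysosomes digest material that a cell takes up or recycles, and microglia rely on them to clear debris and red blood cell products. The vacuolar ATPase acidifies the lysosome: its V1 sector hydrolyses ATP on the cytosolic side, and its V0 sector carries protons through the membrane. TFEB, TFE3 and MITF bind E-box elements in the promoters of many lysosomal genes, and their activity is controlled by mTORC1 on the lysosome surface.

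The comparisons rest on scaled mean counts (normalised counts per 1000000, CPM). The nuclear groups were scaled together and the cytoplasmic groups together, so the CPM of a nuclear and a cytoplasmic group are not on 1 scale. Calls, higher or lower, required a ratio of 2-fold or more and a log2 ratio whose 95% counting interval, from the reads of all 3 libraries together, excluded 0. This interval covers counting error only and is given in brackets after a ratio. All 34 genes passed the filter on low counts in the nucleus and 32 in the cytoplasm, where Lipa and Psap did not. A mean count of at least 10 in all 3 groups was reached by 34 in the nucleus and by 30 in the cytoplasm.

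Summed over libraries, the nuclear groups held 14652566 to 16031875 counts and the cytoplasmic groups 16537318 to 22379595. CPM in this paragraph are taken from total counts and are not normalised, while ratios and calls keep the scaling described above. Total counts moved the median nuclear log2 ratio of all genes by -0.20 at 12 h and -0.30 at 24 h. All 13 microglia and macrophage markers had reads in the nuclear RNA at 0 h. Their sum was 1077 CPM at 0 h, 639 at 12 h and 577 at 24 h. Ptprc (598 to 295 CPM from 0 to 24 h) and Trem2 (256 to 101) fell. Of the 11 markers compared in the nucleus, 7 had log2 ratios below 0 at each time. The other 4 were above 0, among them Spi1, Cd68 and Tmem119. In the cytoplasm the 13 markers summed to 356, 398 and 372 CPM, and P2ry12, a marker of resting microglia, was at 0 in all 3 groups. Of the 5 or 6 markers listed for each of neurons, astrocytes, oligodendrocytes, fibroblasts and erythroid cells, at most 4 had reads in any group, and each list summed to between 0.045 and 13.4 CPM. Aqp4, Aldh1l1, Slc1a3, Mog, Hba-a1 and Hba-a2 were at 0 throughout, and the fibroblast sum was highest in the cytoplasm at 12 h, at 6.71 CPM. Nuclear-retained RNAs (Malat1, Neat1, Kcnq1ot1, Meg3 and Mir17hg) summed to at least 52365 CPM in the nucleus and at most 3584 in the cytoplasm. RNAs listed as cytoplasmic (Gapdh, Actb, Eef1a1, Rplp0 and mt-Co1) summed to at most 4360 CPM in the nucleus and at least 29387 in the cytoplasm. At 0 h 4 of them were called higher in the cytoplasm, but Gapdh was called higher in the nucleus, at 143 CPM beside 18.5 in the cytoplasm. Whether these differences had a part in the results below was not tested. In such bulk RNA, fewer cells that express a gene and less RNA per cell cannot be told apart.

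In the cytoplasm at 12 h, 2 of the 32 measured genes were called higher and 4 lower. Of all 11751 genes compared, 11.9% were called higher and 8.65% lower, so calls in both directions together were about as frequent as among all genes. The genes called higher were Atp6v0c and Atp6v1f, and those called lower were Atp6v0d2, Tfeb, Man2b1 and Glb1. The median log2 ratio of the 32 genes was -0.37, beside -0.02 for all genes, and 24 of the 32 were below 0, beside 51.0% of all genes. At 24 h, 2 genes were called higher and 5 lower, beside 11.3% and 5.78% of the 11748 genes compared. Atp6v0c and Atp6v1f were again the higher ones, and Atp6v0d2, Tfeb, Man2b1, Grn and Atp6ap1 the lower ones. The median was -0.45 at 24 h, beside 0.01 for all genes, and 27 of the 32 were below 0, beside 49.4% of all genes.

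In the nucleus at 12 h, 1 of the 34 genes was called higher (Atp6v1f) and 2 lower (Atp6v0d2 and Tfeb), beside 7.66% and 6.89% of all 17295 genes. At 24 h, Atp6v1f was called higher and Atp6v0d2 and Asah1 lower, beside 7.93% and 5.73% of all genes. The median log2 ratio was -0.01 at 12 h for the 34 genes and for all genes, and -0.28 at 24 h for the 34 genes, beside -0.02 for all genes. Between 12 and 24 h none of the genes was called in either fraction, beside 1.95% higher and 1.12% lower of all genes in the nucleus and 3.29% and 1.66% in the cytoplasm. The comparisons at 12 and 24 h share their 0 h groups. The shares of all genes called, and the split between higher and lower, moved with the scaling. With total counts, 31.9% of the genes called in the nucleus at 12 h were higher, beside 52.6% with the scaling used, and 27.5% beside 58.1% at 24 h.

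**Figure D1:**
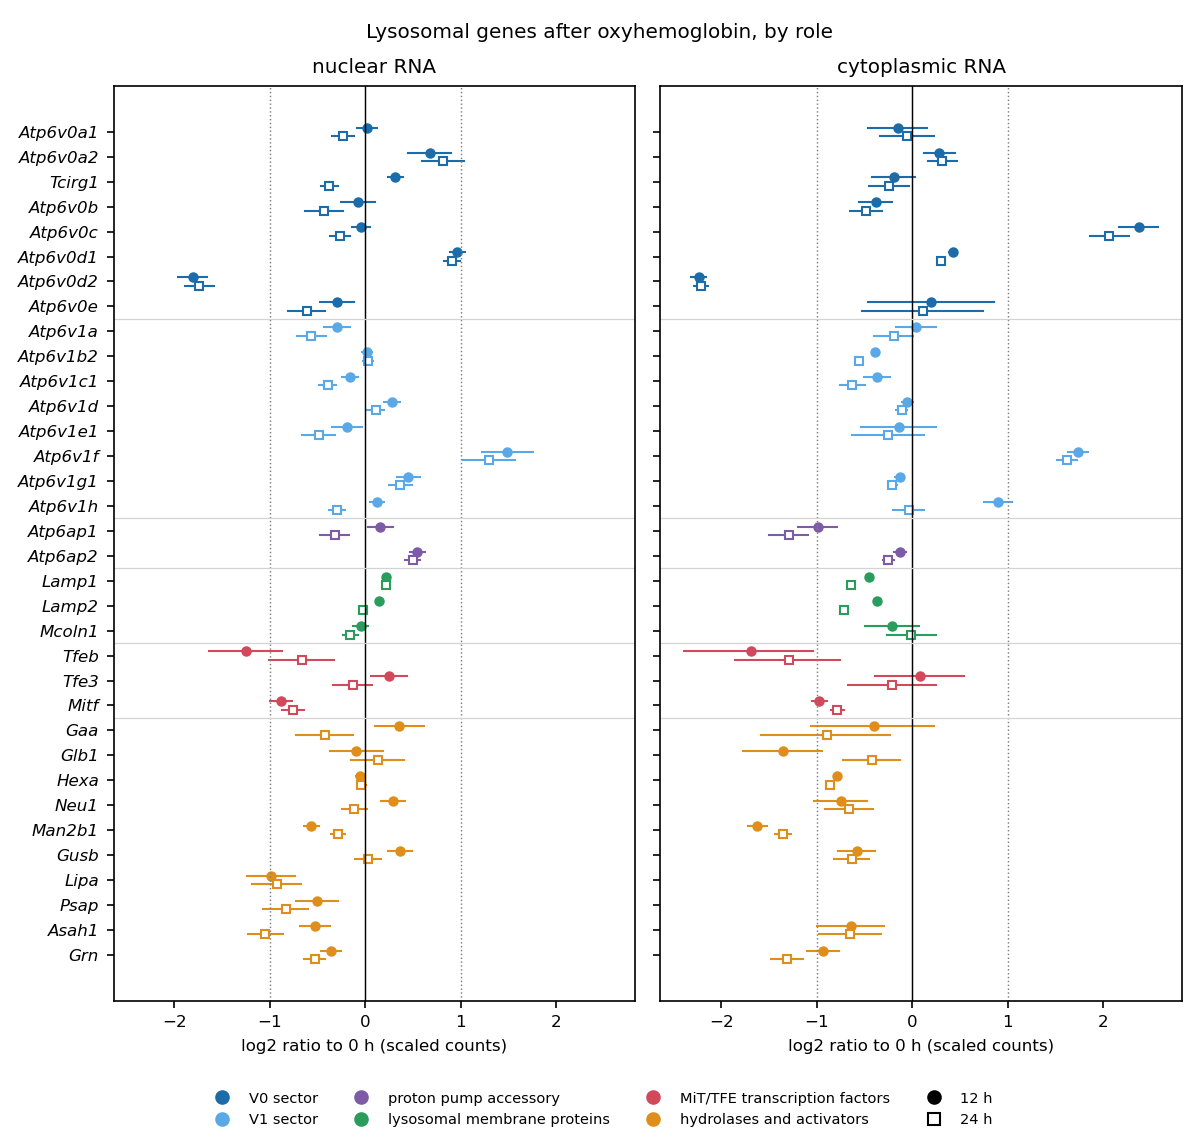
Log2 ratio to 0 h of each of the 34 genes (rows, grouped and coloured by role) in nuclear RNA (left) and cytoplasmic RNA (right), at 12 h (filled circles) and 24 h (open squares). Horizontal lines are 95% counting intervals, dotted lines mark 2-fold, and Lipa and Psap have no cytoplasmic value; most cytoplasmic hydrolases lie left of 0, and Atp6v0d2 lies farthest left in both panels.

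The membrane sector of the pump held both the gene that fell most and the gene that rose most in the cytoplasm at 12 h among the 34. Atp6v0d2 (chr4:19876841-19922605, minus strand, GRCm38) encodes the d2 isoform of the V0 d subunit, which links the membrane ring to the central stalk and is known for its restricted expression in osteoclasts, macrophages and a few other cell types. It was at 102, 29.1 and 30.4 CPM in the nucleus at 0, 12 and 24 h. In the cytoplasm it was at 414, 87.9 and 89.7 CPM. The 0 h group was the highest in both fractions, and the 12 and 24 h groups lay close together. The cytoplasmic level was 4.71-fold lower at 12 h (log2 ratio -2.24 [-2.32 to -2.16]) and 4.62-fold lower at 24 h (-2.21 [-2.28 to -2.14]). The nuclear level was 3.49-fold lower at 12 h (-1.80 [-1.96 to -1.65]) and 3.34-fold lower at 24 h (-1.74 [-1.89 to -1.59]).

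Atp6v0d1 (chr8:105524465-105566047, minus strand) encodes the d1 isoform of the same subunit, which is expressed in most tissues. It was at 114, 223 and 214 CPM in the nucleus and at 548, 736 and 676 CPM in the cytoplasm at 0, 12 and 24 h. With the scaling used its 0 h group was the lowest in both fractions. In the authors' deposited TPM values the cytoplasmic order was reversed, with 772 at 0 h, 614 at 12 h and 629 at 24 h. A rise of Atp6v0d1 in the cytoplasm thus depends on the scaling. The nuclear log2 ratios, 0.97 [0.89 to 1.05] at 12 h and 0.91 [0.82 to 0.99] at 24 h, stayed just under the 2-fold limit, and the cytoplasmic ratios were 0.43 [0.39 to 0.46] and 0.30 [0.27 to 0.34]. In these 2 genes over 80% of the exonic bases lie in only a single annotated transcript, whichever it is (81.3% in Atp6v0d1 and 92.7% in Atp6v0d2). Their reads were set side by side per kilobase of all exonic bases, 1793 in Atp6v0d1 and 2716 in Atp6v0d2. The shares below depend on these lengths, and their counting intervals do not cover that choice. Of the reads per kilobase of both isoforms together, Atp6v0d2 took 33.3% (95% counting interval 32.7 to 33.9) in the cytoplasm at 0 h. This share was 7.31% (6.94 to 7.70) at 12 h and 8.06% (7.69 to 8.43) at 24 h. In the nucleus the share was 37.0%, 7.91% and 8.58% at 0, 12 and 24 h, so the isoform balance at 0 h differed beyond counting error from that at both later times in each fraction.

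**Figure D2:**
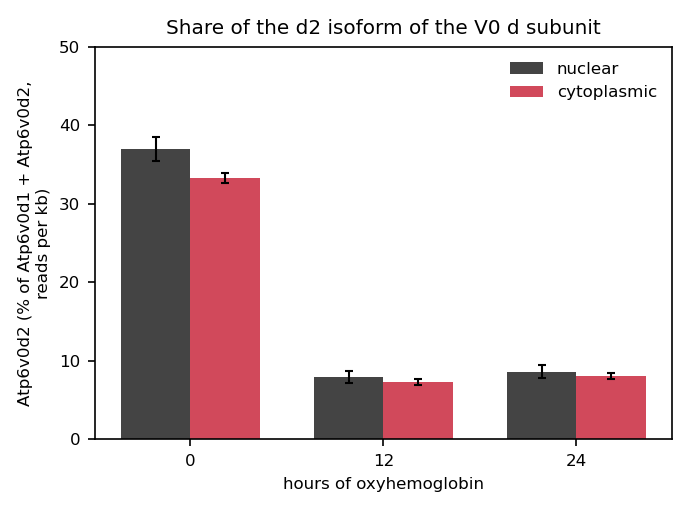
Share of Atp6v0d2 in the reads per kilobase of Atp6v0d1 and Atp6v0d2 together (bars, percent, axis from 0) in nuclear and cytoplasmic RNA at 0, 12 and 24 h, with 95% counting intervals. The share lies above 30% at 0 h and below 10% at 12 and 24 h in both fractions.

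Atp6v0c (chr17:24163866-24169702, minus strand) encodes the c subunit, the proton-binding proteolipid of the V0 ring. It was at 11.2, 58.2 and 46.9 CPM in the cytoplasm at 0, 12 and 24 h and at 110, 107 and 91.3 CPM in the nucleus. The cytoplasmic 0 h group stood below both treated groups, while the nuclear groups lay close together. The cytoplasmic level was 5.18-fold higher at 12 h (log2 ratio 2.37 [2.17 to 2.58]) and 4.18-fold higher at 24 h (2.06 [1.86 to 2.27]), from 253, 937 and 935 summed reads. The nuclear ratios were -0.04 [-0.14 to 0.05] and -0.27 [-0.37 to -0.16]. The processed pseudogene Atp6v0c-ps2 shares 387 aligned bases with it at 99.7% identity, so reads of the 2 can be exchanged. Its mean count in the cytoplasm was 34.0, 27.0 and 44.7 at 0, 12 and 24 h, against 84.3 for Atp6v0c at 0 h and 312 at 12 h.

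The other V0 genes stayed under the 2-fold limit against 0 h in both fractions. Atp6v0a2, one of the a subunits that form the proton path with the ring, was nearest to it, at 16.9, 26.9 and 29.7 CPM in the nucleus, with log2 ratios of 0.67 [0.45 to 0.90] and 0.81 [0.59 to 1.04]. Tcirg1, the a3 subunit of osteoclasts and macrophages, was at 158, 197 and 122 CPM in the nucleus and at 19.6, 17.1 and 16.6 CPM in the cytoplasm. Atp6v0a1, Atp6v0b and Atp6v0e, a further a subunit and small subunits of the ring region, had cytoplasmic ratios between -0.38 and 0.20 at 12 h and between -0.48 and 0.11 at 24 h. The median log2 ratio of the 8 V0 genes in the cytoplasm was 0.03 at both times, with 4 of them below 0 each time. In the nucleus it was -0.01 at 12 h and -0.32 at 24 h.

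Of the 8 V1 genes, which encode the ATP-hydrolysing head and its stalks, 1 was called against 0 h. Atp6v1f (chr6:29467718-29470512, plus strand), the F subunit of the central stalk, was at 9.84, 27.6 and 24.1 CPM in the nucleus and at 45.0, 150 and 138 CPM in the cytoplasm. Both treated groups lay above the 0 h group in each fraction. It was 2.80-fold higher in the nucleus at 12 h (1.49 [1.22 to 1.76]) and 2.45-fold at 24 h (1.29 [1.02 to 1.57]), and 3.33-fold (1.74 [1.63 to 1.84]) and 3.08-fold (1.62 [1.52 to 1.73]) in the cytoplasm. Its nuclear call at 24 h was lost with total counts (0.99) and on the deposited TPM scale, as log2(TPM + 1), where the ratio was 0.63. On that TPM scale its cytoplasmic ratio at 12 h was 0.97, also below the limit. Atp6v1h, the regulatory H subunit, was at 30.3, 56.5 and 29.5 CPM in the cytoplasm, with a ratio of 0.90 [0.75 to 1.04] at 12 h and -0.04 [-0.20 to 0.12] at 24 h. Atp6v1a, the catalytic A subunit, had cytoplasmic ratios of 0.04 at 12 h and -0.19 at 24 h, and Atp6v1b2, a B subunit of the head, had -0.39 and -0.56. The stalk subunits Atp6v1c1, Atp6v1d, Atp6v1e1 and Atp6v1g1 lay between -0.36 and -0.05 at 12 h and between -0.62 and -0.11 at 24 h. The median of the 8 V1 genes in the cytoplasm was -0.09 at 12 h and -0.20 at 24 h.

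The 2 accessory genes encode membrane proteins that take part in assembling the pump. Atp6ap1 was at 34.3, 17.3 and 14.0 CPM in the cytoplasm and at 53.8, 60.0 and 43.0 CPM in the nucleus. Its cytoplasmic ratio was -0.99 [-1.19 to -0.79] at 12 h, just short of the limit, and -1.29 [-1.49 to -1.09] at 24 h, 2.45-fold lower. Atp6ap2, also known as the prorenin receptor, was at 229, 210 and 193 CPM in the cytoplasm and at 135, 197 and 190 CPM in the nucleus. Neither its cytoplasmic ratios of -0.12 and -0.25 nor its nuclear ratios of 0.55 and 0.50 reached the limit.

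Lamp1 and Lamp2 encode the most abundant glycoproteins of the lysosomal membrane. Lamp1 was at 3307, 2416 and 2130 CPM in the cytoplasm and at 668, 779 and 778 CPM in the nucleus, with cytoplasmic log2 ratios of -0.45 [-0.47 to -0.44] and -0.64 [-0.65 to -0.62]. Lamp2 was at 1173, 909 and 714 CPM in the cytoplasm and at 720, 798 and 708 CPM in the nucleus, with cytoplasmic ratios of -0.37 [-0.40 to -0.34] and -0.72 [-0.75 to -0.69]. Both had their highest cytoplasmic level at 0 h and their lowest at 24 h, but neither was called. Mcoln1, the calcium channel TRPML1, was at 12.2, 10.5 and 12.1 CPM in the cytoplasm and at 180, 174 and 161 CPM in the nucleus, and its counting intervals in the cytoplasm included 0 at both times.

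Tfeb was called lower and its relative Tfe3 was not, a difference between the 2 genes that was not itself tested. Tfeb (chr17:47737030-47792419, plus strand) encodes a transcription factor that activates lysosomal and autophagy genes. It was at 12.5, 5.27 and 7.88 CPM in the nucleus and at 4.79, 1.49 and 1.96 CPM in the cytoplasm. The 0 h group was the highest in both fractions. Its cytoplasmic level was 3.22-fold lower at 12 h (-1.69 [-2.39 to -1.04]) and 2.45-fold lower at 24 h (-1.29 [-1.86 to -0.75]), from 108, 24 and 39 summed reads, so these ratios are imprecise. The nuclear level was 2.37-fold lower at 12 h (-1.25 [-1.63 to -0.87]), and the ratio at 24 h was -0.67 [-1.01 to -0.33]. On the log2(TPM + 1) scale these calls were lost in both fractions: the nuclear ratio at 12 h was -0.81 and the cytoplasmic ratios were -0.74 and -0.64, where the pseudocount is large beside TPM values of at most 1.88.

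Mitf encodes the related factor best known from melanocytes and osteoclasts. It was at 108, 58.4 and 64.0 CPM in the nucleus and at 232, 118 and 134 CPM in the cytoplasm, again highest at 0 h in both fractions. Its ratios of -0.88 and -0.75 in the nucleus and of -0.97 [-1.05 to -0.89] and -0.79 [-0.85 to -0.72] in the cytoplasm stayed under the limit. Tfe3 was at 26.7, 31.7 and 24.3 CPM in the nucleus and at 4.17, 4.41 and 3.61 CPM in the cytoplasm, and its cytoplasmic counting intervals included 0.

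All 8 hydrolases and activators measured in the cytoplasm had log2 ratios below 0 at 12 h and at 24 h, and 2 were called lower each time. Of all genes, 51.0% and 49.4% were below 0, and 8.65% and 5.78% were called lower. The medians of the 8 genes were -0.77 and -0.76. Man2b1 (chr8:85083270-85098282, plus strand), the lysosomal alpha-mannosidase, was at 195, 63.4 and 76.4 CPM in the cytoplasm and at 200, 135 and 165 CPM in the nucleus. Its cytoplasmic level was 3.08-fold lower at 12 h (-1.62 [-1.72 to -1.52]) and 2.55-fold lower at 24 h (-1.35 [-1.44 to -1.27]), while the nuclear ratios were -0.57 and -0.28. Glb1, the lysosomal beta-galactosidase, was at 10.3, 4.04 and 7.67 CPM in the cytoplasm and was 2.55-fold lower at 12 h (-1.35 [-1.77 to -0.95]), with -0.42 [-0.73 to -0.12] at 24 h. Grn, the precursor of the lysosomal granulins, was at 48.1, 25.2 and 19.4 CPM in the cytoplasm. Its ratio was -0.94 [-1.10 to -0.77] at 12 h, and it was 2.48-fold lower at 24 h (-1.31 [-1.48 to -1.14]).

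Hexa encodes the alpha subunit of beta-hexosaminidase and has a single annotated transcript. It was at 1181, 683 and 651 CPM in the cytoplasm and at 470, 453 and 456 CPM in the nucleus, with cytoplasmic ratios of -0.79 [-0.82 to -0.76] and -0.86 [-0.89 to -0.83]. The nuclear ratios were -0.05 and -0.04, so the 3 nuclear groups nearly coincided. The uncalled cytoplasmic ratios of the remaining hydrolases at 12 h and 24 h were -0.75 and -0.66 for the sialidase Neu1, -0.58 and -0.63 for the beta-glucuronidase Gusb, -0.40 and -0.90 for the alpha-glucosidase Gaa, and -0.64 and -0.65 for the acid ceramidase Asah1. Asah1 was called lower in the nucleus at 24 h, 2.07-fold (-1.05 [-1.23 to -0.87]), where it was at 51.0, 35.4 and 24.7 CPM. Lipa, the lysosomal acid lipase, had 5, 7 and 11 summed reads in the cytoplasm, too few for a cytoplasmic comparison. Its nuclear level was 25, 12.6 and 13.2 CPM, with ratios of -0.99 and -0.93. Psap, the precursor of the saposins, was at 26.7, 18.8 and 15.0 CPM in the nucleus, with ratios of -0.50 and -0.83.

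**Figure D3:**
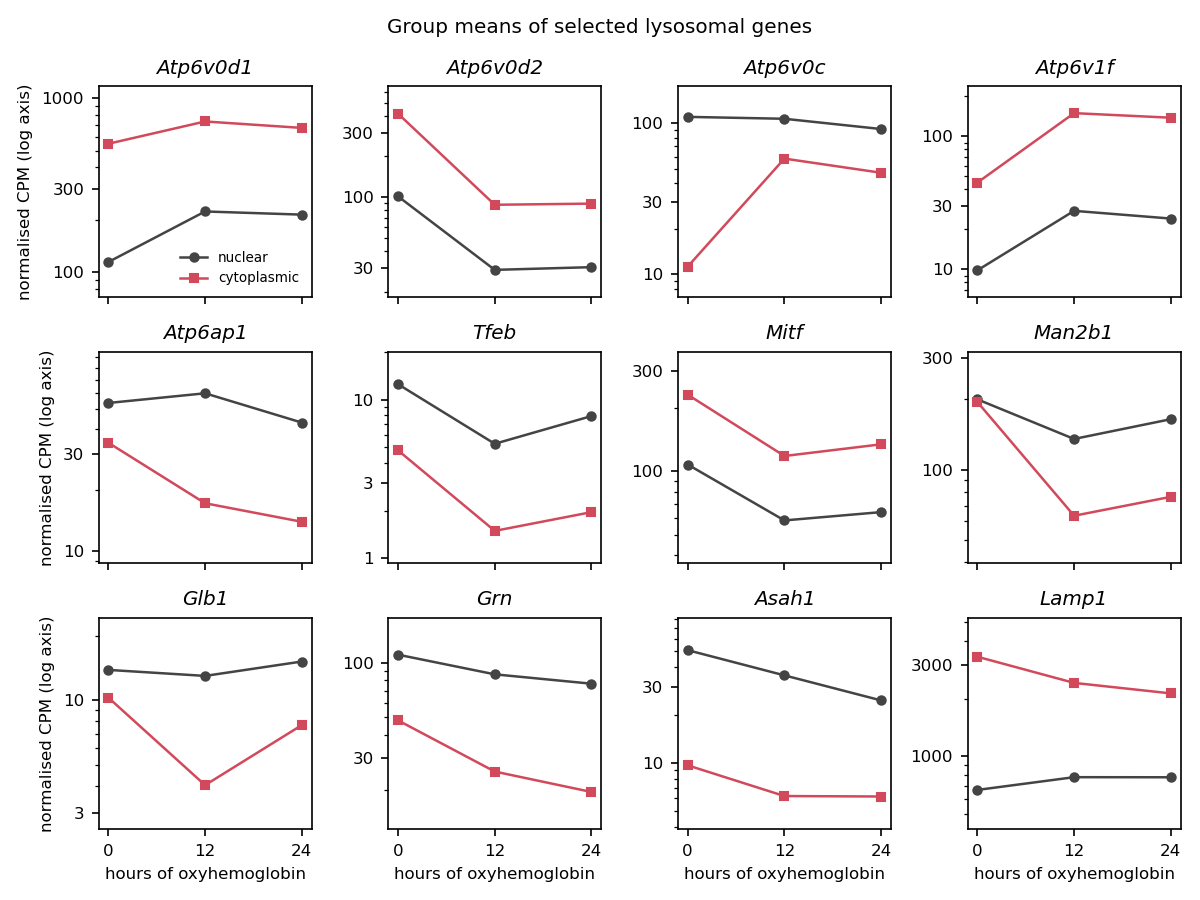
Normalised CPM (log axis, scaled separately in each fraction) of 12 of the genes at 0, 12 and 24 h in nuclear RNA (circles) and cytoplasmic RNA (squares). Each point is the authors' mean of 3 libraries, so no error bars are drawn; Atp6v0d2 drops in both fractions, Atp6v0c is higher after 0 h in the cytoplasm only, and Man2b1 shows a wider cytoplasmic than nuclear difference.

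The ratio in the cytoplasm lay below that in the nucleus for 26 of the 32 genes at 12 h and for 22 of 32 at 24 h. The 2 fractions were scaled separately here, and the share over all genes was not counted for this measure. With all 6 groups scaled together, the nuclear-to-cytoplasmic ratio at 12 h was above that at 0 h for 27 of the 34 genes, beside 9708 of all 16544 genes. At 24 h it was above for 23 of the 34, beside 8965 of all 16813 genes. The change of the nuclear-to-cytoplasmic ratio between 0 h and each later time was compared gene by gene. Here a gene moved toward the nucleus when this ratio rose and toward the cytoplasm when it fell. Such a change can come from a loss or gain in either fraction, and no movement of RNA was measured. At 12 h, 4 of 34 genes moved toward the nucleus by 2-fold or more, beside 7.37% of all 16544 genes: Glb1 (1.30 [0.82 to 1.78]), Atp6ap1 (1.19 [0.95 to 1.43]), Man2b1 (1.10 [0.97 to 1.22]) and Neu1 (1.08 [0.78 to 1.37]). Another 2 moved toward the cytoplasm, beside 7.5% of all genes: Atp6v0c (-2.38 [-2.60 to -2.15]) and Lipa (-1.92 [-3.59 to -0.25]). Lipa had 5 cytoplasmic reads at 0 h and passed the filter only through its nuclear groups, which holds for its shift at 24 h too. At 24 h, Man2b1 (1.08 [0.97 to 1.19]) moved toward the nucleus, beside 6.07% of all 16813 genes, and Atp6v0c (-2.32 [-2.54 to -2.09]) and Lipa (-2.23 [-3.77 to -0.69]) toward the cytoplasm, beside 9.49%. The median shift of the 34 genes was 0.44 at 12 h and 0.45 at 24 h, and that of all genes 0.18 and 0.07. With total counts the medians of the 34 genes were 0.25 and 0.11, those of all genes -0.01 and -0.26, and the shifts of Man2b1 were 0.91 and 0.75. Those of Atp6ap1 and Neu1 at 12 h were then 0.995 and 0.89, so of the 4 only Glb1, at 1.11, stayed past the limit. With log2(TPM + 1) the shift of Lipa at 12 h was -0.96 and that of Man2b1 at 24 h 0.996, both under the limit. None of the 34 genes was called in opposite directions in the 2 fractions at the same time. In the nucleus only 1 was called higher and 2 lower at each time, and the share over all genes was not counted. No reading about these genes is drawn from this.

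**Figure D4:**
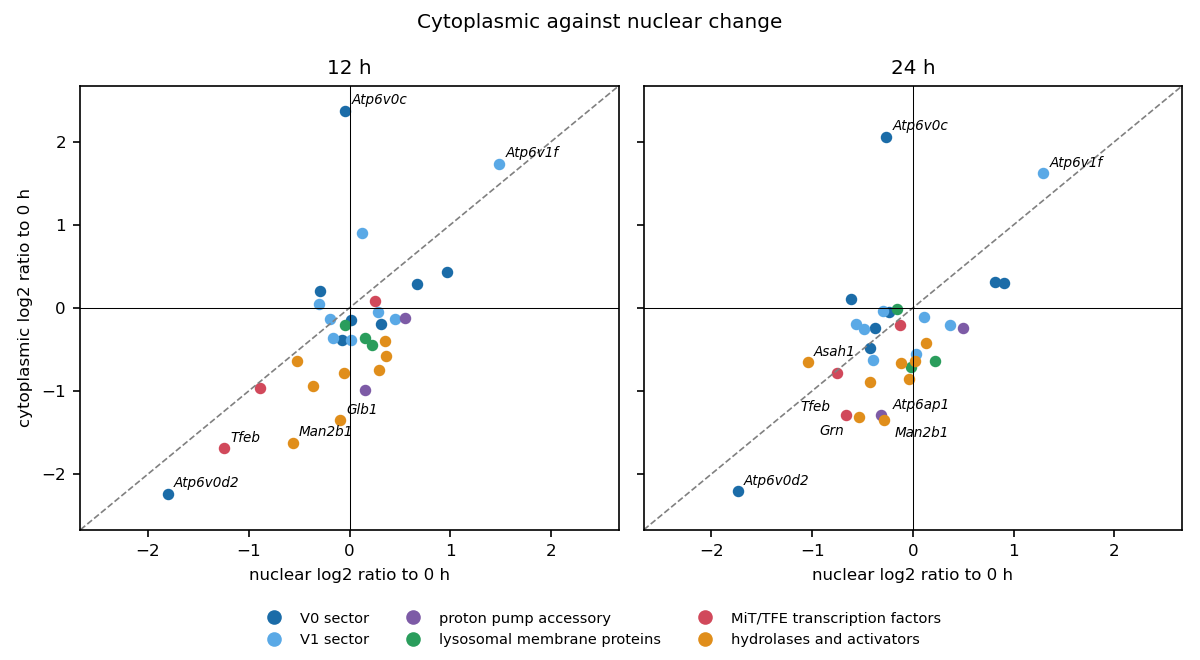
Cytoplasmic log2 ratio to 0 h (vertical) against the nuclear one (horizontal) for the 32 genes measured in both fractions, at 12 h (left) and 24 h (right), coloured by role, with the line of equal ratios dashed and genes called in either fraction named. Most points lie under the dashed line, 26 of 32 at 12 h and 22 at 24 h, and Atp6v0c stands far above it. The share of all genes under the line was not counted.

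Before treatment, 12 of the 34 genes were called higher in the nucleus and 14 higher in the cytoplasm, beside 48% and 32.2% of all 17892 genes. Their median nuclear-to-cytoplasmic log2 ratio was -0.13, beside 0.83 for all genes. Total counts moved this ratio by 1.36 for the median of all genes. The counts of calls between the fractions, here and at 12 and 24 h, therefore depend on the scaling. The ratios of single genes below are read only as differences between genes. At 12 h the counts were 11 and 12 of 34, beside 45.3% and 30.2% of all genes, and at 24 h 11 and 13, beside 44.7% and 30%. The genes differed widely among themselves. At 0 h Atp6v1g1 was at -4.00, Lamp1 at -3.51, Atp6v0d1 at -3.47 and Atp6v1f at -3.40. On the other side Atp6v0c was at 2.08, Mcoln1 at 2.68 and Atp6v0e at 2.98. Psap and Lipa, both among the 12 called higher in the nucleus, passed the filter only through their nuclear groups. They had 24 and 5 summed reads in the cytoplasm at 0 h, so their ratios are not ranked here. Of the 8 V0 genes, 4 were called higher in each fraction. The cytoplasmic calls of Atp6v0a2 and Atp6v0b were lost with total counts, which gave -0.64 and 0.071, and with log2(TPM + 1), which gave -0.99 and -0.48.

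The transcript structure of the genes went along with these ratios. In the deposited TPM values, the length used for a gene equalled the summed length of all its transcripts for 97.8% of 5311 multi-transcript genes. Coding genes with little sequence of their own to a single transcript also had few reads: at 0 h, 6.95% of the 1785 genes with under 10% such sequence reached a mean count of 10 in the cytoplasm, beside 59.0% of the 2024 genes with at least 80%. Across the 34 genes, the nuclear-to-cytoplasmic ratio at 0 h had a Pearson correlation of -0.46 and a Spearman correlation of -0.42 with the share of exonic sequence found in 1 transcript only. The points are genes of the same libraries and not independent replicates. Of the 9 genes with at least 80% such sequence, 8 were called higher in the cytoplasm, beside 32.2% of all genes, and Atp6v1h was the exception. With total counts, 3 of these 8 fell under the limit, Atp6v1d (-0.90), Atp6ap2 (-0.60) and Lamp2 (-0.55). Psap has 3.5% such sequence, Grn 28.2%, Glb1 27.1% and Atp6ap1 25.3%, so their counts may cover only a minor part of their transcripts. Exons of other genes overlapped at most 12.8% of the exonic bases of any of the 34, which was Hexa with Tmem202, a gene with a mean count of at most 1.67. Whether changes in transcript use had a part in their ratios was not tested. Of the genes called against 0 h, Atp6v0d2 was the only one with at least 80%.

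**Figure D5:**
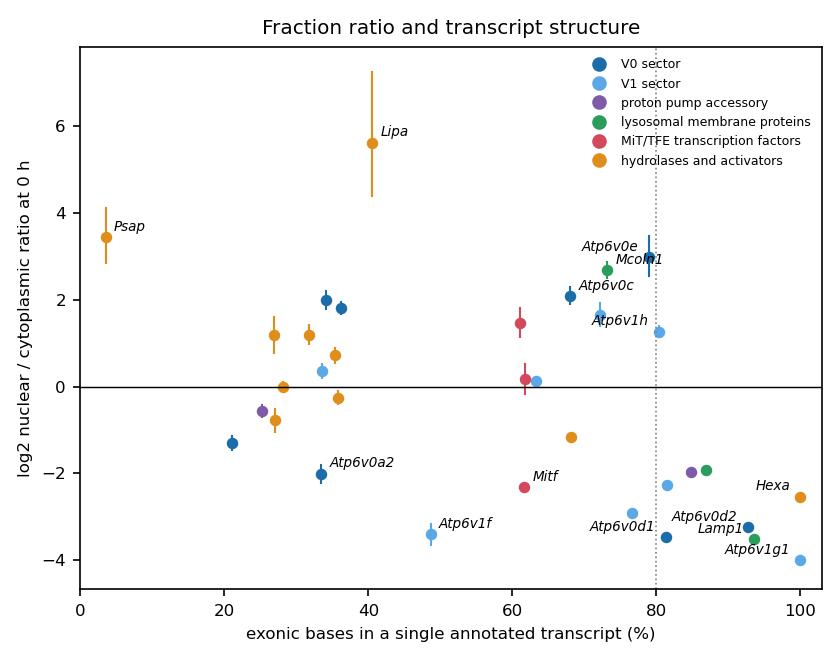
Log2 nuclear-to-cytoplasmic ratio at 0 h (vertical, with 95% counting intervals) of the 34 genes against the percent of their exonic bases found in a single annotated transcript (horizontal), coloured by role, with a dotted line at 80%. To the right of the line 8 of 9 genes lie below 0, and Psap and Lipa lie highest on the left. Psap and Lipa had few cytoplasmic reads and passed the filter only through the nuclear groups.

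Levels were compared between genes only for these 9, per kilobase of exon. The division is by all exonic bases of a gene, which can exceed the length of any 1 of its transcripts and then lowers the value. Atp6v1h has 8 annotated transcripts with 9746 exonic bases together, so its low values below may partly reflect this length. In the cytoplasm at 0 h, Lamp1 was at 1236 CPM per kilobase, Hexa at 592, Atp6v1g1 at 366, Atp6v0d1 at 305, Atp6v0d2 at 153, Lamp2 at 123, Atp6ap2 at 87.4, Atp6v1d at 57.9 and Atp6v1h at 3.11. The order in the nucleus at 0 h began with Lamp1 at 250 CPM per kilobase and Hexa at 235 and ended again with Atp6v1h at 17.2. At 12 h Lamp1 was at 903 CPM per kilobase in the cytoplasm, Atp6v0d1 at 410 and Atp6v0d2 at 32.4.

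Because the TFEB family binds the E-box CACGTG, which in its preferred element (the CLEAR motif) is flanked by GT and AC, the promoters of the genes were searched for it. RefSeq promoter windows (GRCm38.p6, from 250 bases before to 50 after the transcription start) were matched for 27 of the 34 genes. CACGTG, which reads the same on both strands, was present in 8 of the 27, beside 8.09% of 27025 genes. The longer TCACGTGA, which contains it, was present in 4 of the 27, beside 1.12% of genes, and the full motif with GT before and AC after CACGTG in 0, beside 0.370%. Stretches from 80 bases before the start to 10 bases after it are shown for the 6 genes with the E-box closest to their start, 5′ to 3′ on the strand of the gene, with each CACGTG in capitals. They lie at chr8:13159081-13159170 (plus strand), chr8:3500439-3500528 (plus), chr4:117887320-117887409 (minus), chr8:105566055-105566144 (minus), chr17:26676316-26676405 (plus) and chr9:114400998-114401087 (plus).
Lamp1: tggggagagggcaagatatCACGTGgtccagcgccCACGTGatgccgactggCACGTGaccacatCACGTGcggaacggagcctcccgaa
Mcoln1: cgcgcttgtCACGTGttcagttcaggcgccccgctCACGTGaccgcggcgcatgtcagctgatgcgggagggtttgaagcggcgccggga
Atp6v0b: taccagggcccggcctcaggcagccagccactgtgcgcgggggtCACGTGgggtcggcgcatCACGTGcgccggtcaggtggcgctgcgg
Atp6v0d1: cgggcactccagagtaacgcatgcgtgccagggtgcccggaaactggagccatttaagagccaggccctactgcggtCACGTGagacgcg
Atp6v0e: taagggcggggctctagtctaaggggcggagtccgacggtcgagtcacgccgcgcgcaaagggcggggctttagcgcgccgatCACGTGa
Glb1: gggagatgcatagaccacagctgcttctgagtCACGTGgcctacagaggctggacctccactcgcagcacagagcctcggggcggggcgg
Lamp1 held 4 copies within this stretch, Mcoln1 and Atp6v0b 2 each, and the others 1. Gaa and Atp6v1a held 1 copy farther from the start. The median cytoplasmic log2 ratio at 12 h was -0.30 for the 8 genes with CACGTG, of which 1 was called lower (Glb1), and -0.37 for the 17 measured genes whose window lacks it, of which 2 were called higher and 2 lower, beside 11.9% and 8.65% of all genes. At 24 h the medians were -0.31 and -0.63, with 0 called with CACGTG, and 2 higher and 4 lower without, beside 11.3% and 5.78%. In the nucleus the order was the other way round, with medians of -0.06 with CACGTG and 0.02 without at 12 h, and -0.29 and -0.27 at 24 h. A match shows only that these letters are present in the window, and no binding was measured.

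Other genes of the pathway, from 5 lists, were read in the same way, beside 11.9% of all genes called higher and 8.65% lower in the cytoplasm at 12 h, 11.3% and 5.78% at 24 h, and 7.66% and 6.89% in the nucleus at 12 h. Of 29 further lysosomal hydrolases, activators and sorting factors measured in the cytoplasm, 1 was called higher and 8 lower at 12 h, with a median of -0.64, and 1 higher and 5 lower at 24 h, with a median of -0.40. The lower ones included Tpp1, the tripeptidyl peptidase (from 84.0 to 32.0 CPM at 12 h, -1.39 [-1.53 to -1.25]), Naglu, the N-acetylglucosaminidase (97.4 to 40.1 CPM, -1.28 [-1.41 to -1.15]), and Ids, the iduronate sulfatase (21.1 to 8.51 CPM, -1.31 [-1.59 to -1.03]). Of 26 further lysosomal membrane proteins, 2 were called higher and 4 lower at 12 h, with a median of -0.53, and 1 higher and 5 lower at 24 h, with a median of -0.48. Slc15a3, a lysosomal peptide and histidine transporter, was higher in both fractions, from 17.1 to 91.1 CPM in the cytoplasm at 12 h (2.41 [2.25 to 2.58]) and from 22.7 to 118 CPM in the nucleus (2.38 [2.22 to 2.55]). The nucleoside transporter Slc29a3 was lower in the cytoplasm, from 138 to 60.9 CPM at 12 h (-1.18 [-1.29 to -1.08]).

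The list of mTORC1, Rag and folliculin control of TFEB had 0 genes called higher and 1 lower of 22 in the cytoplasm at 12 h. In the nucleus at 12 h it had 3 higher and 1 lower of 24. The medians were -0.20 and -0.06. These few calls give no reading for the list beside the shares of all genes. The Rag GTPase gene Rraga rose from 57.9 to 146 CPM in the nucleus at 12 h (1.33 [1.22 to 1.44]), and Rragc fell from 24.6 to 9.90 CPM (-1.31 [-1.59 to -1.04]). Ywhab, a 14-3-3 protein that binds phosphorylated TFEB, rose from 122 to 284 CPM (1.22 [1.14 to 1.29]). Of 25 autophagy genes measured in the cytoplasm, 1 was called higher and 2 lower at 12 h, among them Tecpr1 (283 to 127 CPM, -1.16 [-1.23 to -1.09]) and Stx17 (26.0 to 11.5 CPM, -1.17 [-1.41 to -0.93]), with a list median of 0.02. Of 10 further pump subunits and assembly factors, 1 was called higher and 1 lower, with a median of 0.34. The higher one was Vma21, an assembly chaperone of the V0 sector, which was at 18.8 CPM at 0 h and 46.5 at 12 h (1.31 [1.13 to 1.48]).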

How the data were processed

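RNA of nuclear and cytoplasmic fractions of BV2 cells was sequenced after 0, 12 and 24 h of oxyhemoglobin. Per the submitters' processing notes, the aligner was HISAT2 2.2.0, the genome GRCm38, the counter featureCounts, and DESeq2 is listed too. Strand setting and annotation: not given in the sources used here, so reads of overlapping genes on opposite strands may not be told apart. The deposited count table holds 1 column per group: every value times 3 was whole within 0.001, although 28.1% to 34.9% of a column's values were themselves fractional, so each was read as the mean count of 3 libraries. The authors' deposited TPM files, 1 per group, were used as an alternative scale. With means only, the planned quasi-likelihood test was replaced by a size limit with a counting interval, and no library could be left out. The number of per-sample columns not used was 0.

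Scaling of the mean counts used TMM (trimmed mean of M-values, 30% of log ratios and 5% of mean levels trimmed), nuclear and cytoplasmic groups separately for comparisons over time and all 6 together for fraction ratios. Genes were compared where 1 group had the equivalent of 10 counts or more at median depth. Log2 ratios have exact (Clopper-Pearson) 95% counting intervals from summed reads, and shifts of the fraction ratio a normal approximation. Calls needed 2-fold and an interval excluding 0. Reads without molecular identifiers are not independent molecules, so the intervals cover counting error only. Depth gave 3 reads per group as the limit that a count of 0 allows, between 0.134 and 0.205 CPM of total counts. Symbols and exons came from GENCODE M21, which holds 55227 of the 55487 identifiers. Copies of the genes were searched with BLAST 2.17.0 (at least 95% identity over 200 bases), and 7 genes had one. Of these, only Atp6v0c had a copy with more than 2% of its count. The calculation was tested on simulated data and run in Python 3.11.15 (scipy 1.17.1, pandas 2.3.3, numpy 2.4.6, matplotlib 3.10.9).

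The 34 genes, the other lists and the cell type markers were chosen with earlier results of these data known. All 34 genes could be named. Of each other list at most 3 genes per comparison were named, those with the largest absolute log2 ratio among called genes with a mean of at least 5 CPM. Not every gene picked in this way is reported here. Alternatives tried were total-count and median-of-ratios scaling, log2(TPM + 1), no filter or one at 50 counts, a 1.5-fold limit, and only genes with at least 80% of exonic bases in 1 transcript.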

Additional observations from a re-analysis of the deposited data

How the results depend on the processing

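All results rest on means of 3 libraries, so differences between cultures are not covered. No paired analysis was possible because the table holds 1 mean per group, and for the same reason no replicate could be left out. Counts of genes called are given here with the value of the report in brackets, and a count is listed where it moved by over 1.5 times. Removing the filter or raising it to 50 counts moved none of the 22 counts in this way, and median-of-ratios scaling moved 1, the shifts toward the nucleus at 24 h, to 2 (1).

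With a 1.5-fold limit, the nucleus had 3 higher (1) and 4 lower (2) at 12 h, 3 higher (1) and 7 lower (2) at 24 h, and 2 lower (0) between 12 and 24 h. The cytoplasm had 10 lower (4) at 12 h, 14 lower (5) at 24 h, and 1 higher and 1 lower (0 each) between 12 and 24 h. Shifts toward the nucleus numbered 11 (4) at 12 h and 12 (1) at 24 h.

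With total counts, the nucleus had 4 lower (2) at 12 h, and 0 higher (1) and 5 lower (2) at 24 h. Nuclear against cytoplasmic RNA gave 7 lower (14) at 0 h, 20 higher (11) and 7 lower (12) at 12 h, and 18 higher (11) and 8 lower (13) at 24 h, and shifts toward the nucleus 1 (4) and 0 (1). The fraction ratios at 0 h of Atp6v0b, from -1.29 to 0.071, and of Man2b1, from -1.17 to 0.20, reversed. The median of all genes moved by -0.20 and -0.30 in the nucleus at 12 and 24 h. Of all genes called between 12 and 24 h in the nucleus 44.2% were higher (63.7%), of those called at 0 h between the fractions 78.9% (59.9%), and of shifts 29.3% (49.6%) at 12 h and 10.1% (39.0%) at 24 h, where median-of-ratios scaling gave 51.1%.

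With log2(TPM + 1), which moved the median of all genes by -0.69 in the cytoplasm at 12 h and by -0.56 at 24 h in both fractions, the nucleus had 0 higher (1) and 9 lower (2) at 24 h. The cytoplasm had 1 higher (2) and 14 lower (4) at 12 h, and 12 lower (5) at 24 h. Of all genes called in the cytoplasm, 15.5% were higher at 12 h (58.0%) and 21.6% at 24 h (66.2%), and in the nucleus 31.7% (52.6%) and 12.8% (58.1%), and 9.31% (63.7%) between 12 and 24 h. Of those called between the fractions at 12 h 78.7% (60.1%) were higher in the nucleus, and of shifts 80.2% (49.6%) at 12 h and 26.6% (39.0%) at 24 h. Nuclear against cytoplasmic RNA gave 19 higher (11) and 6 lower (12) at 12 h and 8 lower (13) at 24 h. Shifts at 12 h were 10 (4) toward the nucleus and 1 (2) toward the cytoplasm, and 0 (1) toward the nucleus at 24 h.

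Counting only the 9 genes with at least 80% of exonic bases in 1 transcript leaves fewer genes by construction. The nucleus then had 0 higher (1) and 1 lower (2) at 12 h and at 24 h. The cytoplasm had 0 higher (2) and 1 lower (4) at 12 h, and 0 higher (2) and 1 lower (5) at 24 h. Nuclear against cytoplasmic RNA gave 1 higher (12) and 8 lower (14) at 0 h, 0 higher (11) at 12 h, and 1 higher (11) and 8 lower (13) at 24 h. Shifts were 0 in each direction at 12 h (4 and 2) and at 24 h (1 and 2). The calls of Atp6v0d2 were kept with each scaling tried.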
